A study of Mus musculus with 24 samples.

Results

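The energy buffer of muscle was described here through 10 genes, chosen by name: the creatine kinases Ckm, Ckb, Ckmt1, and Ckmt2, the creatine transporter Slc6a8, the creatine-synthesis enzyme Gamt, the adenylate kinase Ak1, the AMP deaminases Ampd1 and Ampd3, and myoglobin (Mb). All 10 were found among the 56941 genes of the deposited tables, and 9 were tested. Ckmt1 had too few counts. Bulk RNA was sequenced from 2D sheets of muscle grown from C2C12 myoblasts, a mouse cell line that fuses into contractile fibers, on grooved fibrin gels. All groups, controls included, carried the genotype ChR2::tdTomato, a blue light-gated channel fused to a red fluorescent protein, and all were differentiated in horse serum with IGF-1. Tissues were stimulated with light at 1, 4, or 10 Hz for 30 min per day or were left unstimulated as control, with 6 libraries per condition and 24 in total. All tissues came from 1 cell line and the stimulated tissues received light together with the contraction it evoked, so effects of light and of evoked contraction cannot be told apart. The study observed spontaneous twitching in every condition, so control tissues contracted as well.

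Contracting fibers spend ATP faster than mitochondria and glycolysis can refill it, and the phosphocreatine store covers the gap. Cytosolic creatine kinases (Ckm in muscle, Ckb in brain and in immature muscle) hand the phosphate of phosphocreatine to ADP, and mitochondrial creatine kinases (Ckmt2 in sarcomeric muscle, the ubiquitous Ckmt1 elsewhere) recharge creatine at the site of ATP synthesis. Adenylate kinase turns ADP back into ATP and AMP, AMP deaminases remove the AMP as IMP, and myoglobin holds oxygen inside the fiber.

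Members of this set were called in both directions, in numbers that were not set apart from the background. At 4 Hz against control 1 of 9 members was called higher and 2 lower, against 10.5% and 9.61% of all genes. At 1 Hz these were 0 and 2, against 9.34% and 8.99%. Ckmt2 was higher at 4 Hz than in control, whereas Ampd3 and Ampd1 were lower at both 1 and 4 Hz than in control, and all 3 genes lay near the control level at 10 Hz. All Ampd1 calls ended when the share of non-polyadenylated RNA, which differed between the same conditions, was added as a covariate in edgeR. The Ampd3 call at 1 Hz and every member call at 10 Hz against 4 Hz ended too. Ckmt2 and Ampd3 stayed called at 4 Hz against control. That fit called 0.00751% of all genes higher and 0% lower at 1 Hz, and 0% both ways at 10 Hz against 4 Hz. The cytosolic Ckm and the synthesis enzyme Gamt did not pass an adjusted p of 0.05 in any of the 6 comparisons with all 24 libraries. Each passed it in at least 1 comparison when 1 library was left out. Levels are given in CPM, read counts relative to a library size that was scaled by the trimmed mean of M values (TMM), and a gene was called when edgeR's quasi-likelihood test gave a Benjamini-Hochberg (BH) adjusted p below 0.05 over the 13318 genes tested and the log2 fold change lay beyond 0.5 in either direction. The study calls the 6 tissues of a condition biological replicates of 1 line, and p-values measure the spread between these libraries. In bulk RNA, fewer fibers and less RNA per fiber cannot be told apart.

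The promoter sequences of 4 members are printed so that the muscle E-boxes can be seen beside the values: Ckmt2, which was called higher, Ampd1, which was called lower, and Ckm and Mb, the classical muscle members. Ampd3, also called lower, is not printed, since all 250 bases of its window lie in annotated untranslated regions. The window is the 250 bases before the start of the canonical transcript (GENCODE M39, GRCm39), in the gene's direction. Each run is its longest stretch without bases of annotated untranslated regions. Ckm and Mb run from base 250 to base 1 before the start, Ckmt2 from 206 to 1, and Ampd1 from 250 to 59. In Ampd1 58 bases of the window, those nearest the canonical start, lie in annotated untranslated regions and are left out. The capitals mark E-boxes (CANNTG, both strands), the binding word of myogenic bHLH factors, and matches to the MEF2 consensus.
Ckm (chr7:19144583-19144832, + strand): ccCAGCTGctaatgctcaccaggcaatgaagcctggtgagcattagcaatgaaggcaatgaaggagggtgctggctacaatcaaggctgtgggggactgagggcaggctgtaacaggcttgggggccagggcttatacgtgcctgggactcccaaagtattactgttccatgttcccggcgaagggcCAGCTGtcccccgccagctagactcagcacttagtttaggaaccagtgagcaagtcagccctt
Ckmt2 (chr13:92025081-92025286, - strand): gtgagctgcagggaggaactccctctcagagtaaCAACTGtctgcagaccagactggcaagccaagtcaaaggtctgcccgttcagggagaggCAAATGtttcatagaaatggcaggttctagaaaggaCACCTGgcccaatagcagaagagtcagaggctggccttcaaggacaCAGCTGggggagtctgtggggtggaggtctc
Mb (chr15:76906988-76907237, - strand): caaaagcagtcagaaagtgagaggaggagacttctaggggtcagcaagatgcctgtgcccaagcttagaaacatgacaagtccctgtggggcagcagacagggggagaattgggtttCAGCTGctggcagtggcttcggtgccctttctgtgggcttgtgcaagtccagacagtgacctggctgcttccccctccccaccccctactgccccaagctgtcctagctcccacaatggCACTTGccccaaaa
Ampd1 (chr3:102981080-102981271, + strand): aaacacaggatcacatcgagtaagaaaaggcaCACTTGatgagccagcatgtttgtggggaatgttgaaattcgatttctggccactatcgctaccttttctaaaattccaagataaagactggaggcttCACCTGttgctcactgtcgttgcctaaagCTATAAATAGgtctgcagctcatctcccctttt

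A match is a description of letters and not of a bound site. The start of Ckm in RefSeq lies downstream of the canonical start used here, so its window and distances depend on the annotation. The full Ckm window held 2 E-boxes, both with the core CAGCTG, starting 248 and 63 bases before the start. Mb held 2 E-boxes, of which 1 was CAGCTG at 133 bases before the start. Ckmt2 held 5 E-boxes in its full window, and its single CAGCTG lay 31 bases before the start. The Ampd1 window had 2 E-boxes, none of them CAGCTG, and a MEF2 match starting 91 bases before the start, which overlaps a TATAAA word. Among 21770 promoter windows of protein-coding genes of the same length, 64.8% held at least 1 CANNTG, 11.9% held CAGCTG, 2.79% held a MEF2 match, and 11.9% held TATAAA. Of the other members, Ckb had a MEF2 match that overlaps TATAAA and no E-box, Ak1 had 1 CAGCTG, Slc6a8 had 2 E-boxes, Ampd3 had 1 E-box, and Gamt and Ckmt1 had none. Annotated untranslated regions covered all 250 bases of the Ampd3 and Ckmt1 windows and 236 of the 250 in Ckb.

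Levels in TPM, which corrects for transcript length, spanned a wide range. In control tissue Mb stood at 2149 ± 150 TPM (SD, n = 6) and ranked 84 of all 56941 genes by the mean of the 24 libraries. Ak1 followed at 282 ± 52.0 TPM, with no overlap between the libraries of Mb and those of Ak1. Ckm (91.9 ± 14.4 TPM) and Slc6a8 (83.5 ± 9.62 TPM) came next, and their control libraries overlapped, with Ckm above Slc6a8 in 4 of 6. Ckmt2 (62.7 ± 3.55 TPM) lay below both without overlapping Slc6a8. Ckb (33.5 ± 5.49 TPM) and Ampd3 (31.4 ± 8.64 TPM) did not differ beyond their spread, with Ckb above Ampd3 in 4 of 6 libraries. Gamt (17.4 ± 3.78 TPM) and Ampd1 (4.56 ± 2.46 TPM) closed the tested members. The order of means was the same in all conditions apart from 1 exchange. At 1, 4, and 10 Hz the mean of Slc6a8 was above that of Ckm, with Slc6a8 the higher in 3, 4, and 4 of 6 libraries. At 1 Hz Ampd3 and Gamt also overlapped, with Ampd3 above Gamt in 3 of 6. At 4 Hz Ckmt2 reached 89.2 ± 10.0 TPM, where Ckm at 91.5 ± 18.1 TPM was above it in 3 of 6 libraries.

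**Figure D1:**
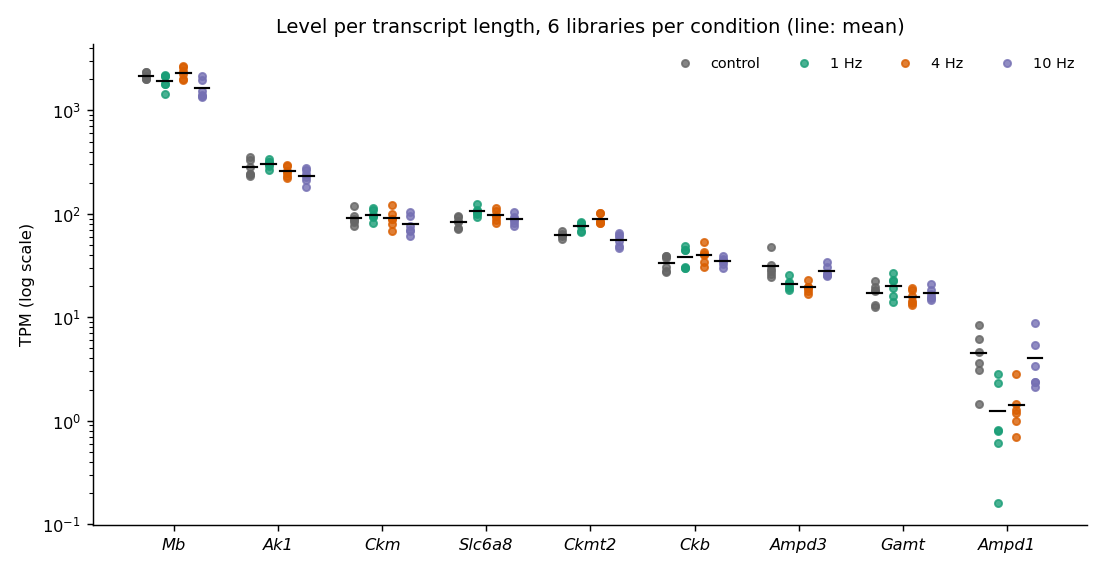
TPM on a log scale for 9 members, grouped by gene along the x axis, with 6 libraries per condition as points in the condition's color and the mean as a line. Mb lies above all other members in every condition, Ckmt2 approaches Ckm at 4 Hz, and Ampd1 is lowest, down to 0.16 TPM in 1 library at 1 Hz. Ckmt1 is left out because 11 of its 24 libraries were at 0.

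Set against control, few members passed the test in either direction, and the shares of all genes passing it are given beside each count. For 1 Hz, 0 of 9 members were called higher and 2 (Ampd1 and Ampd3) lower, against 9.34% and 8.99% of all genes. For 4 Hz, 1 member (Ckmt2) was called higher and 2 (Ampd1 and Ampd3) lower, against 10.5% and 9.61% of all genes. For 10 Hz, 0 members were called in either direction, against 1.24% of all genes higher and 0.623% lower. In edgeR, 5 of 9 members at 1 Hz had an unadjusted p below 0.05 (3 higher and 2 lower), against 44.4% of all genes, and at 10 Hz 1 did (Mb, lower), against 20.6% of all genes. DESeq2 and limma also called 0 members higher at 1 Hz and 0 in either direction at 10 Hz. With 9 genes, shares of this size rest on 1 or 2 genes and were not set apart from the background.

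Between frequencies the counts were similar. For 4 Hz against 1 Hz, 0 members were called higher or lower in edgeR, DESeq2, or limma, against 1.59% and 1.4% of all genes in edgeR. At an unadjusted p below 0.05, 2 of 9 members were higher and 0 lower, against 26.9% of all genes in either direction. For 10 Hz against 1 Hz, 1 member (Ampd1) was called higher and 0 lower, against 9.45% and 8.49% of all genes, and 2 members were higher and 4 lower at an unadjusted p below 0.05, against 46.1% of all genes in either direction. DESeq2 and limma called 0 lower there too. For 10 Hz against 4 Hz, 2 members (Ampd1 and Ampd3) were called higher and 2 (Ckmt2 and Mb) lower, against 5.32% and 5.64% of all genes. The comparisons share libraries, so these counts are not independent of each other. The split of all called genes depended on scaling: scaling by total count gave 942 higher and 1595 lower calls at 1 Hz (1244 and 1197 with TMM), 1012 and 1821 at 4 Hz (1396 and 1280), and 933 and 591 at 10 Hz against 4 Hz (709 and 751). It placed the median of all genes at -0.11 at 4 Hz, where Ckmt2 stood at 0.61 and kept its call.

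The median log2 fold change of the 9 members was 0.25 at 1 Hz, 0.26 at 4 Hz, and -0.05 at 10 Hz against control, where that of all genes was -0.01 at each frequency. It was 0.03 at 4 Hz against 1 Hz, -0.25 at 10 Hz against 1 Hz, and -0.21 at 10 Hz against 4 Hz, with all-gene medians of -0.00488, 0.01, and 0.01. These medians are descriptions of a list of 9 genes.

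**Figure D2:**
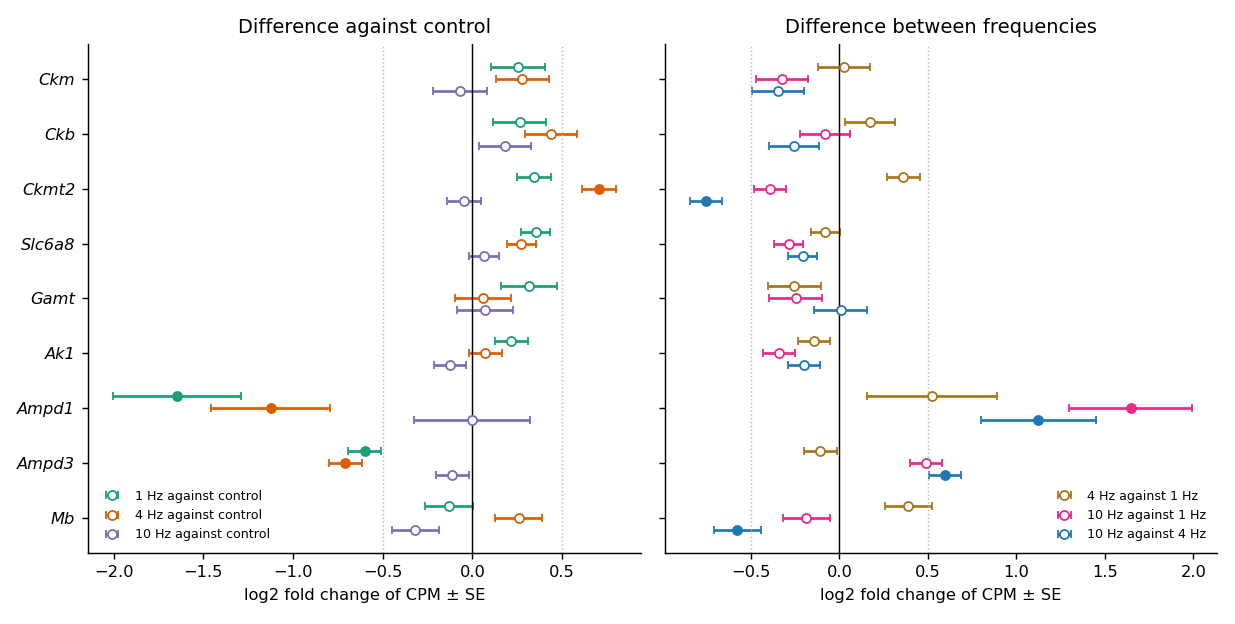
Log2 fold change of CPM (x axis, bars: standard error, SE) for 9 members (y axis) against control on the left and between frequencies on the right. Filled points passed the adjusted p and the fold cutoff, and dotted lines mark a log2 fold change of 0.5 either way. Ckmt2 is filled at 4 Hz, Ampd1 and Ampd3 are filled at 1 and 4 Hz, and no point is filled at 10 Hz against control.

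Ckmt2 (ENSMUSG00000021622, GRCm39 chr13:92001503-92025608, - strand, 10 exons in the canonical transcript) encodes the sarcomeric mitochondrial creatine kinase, which couples ATP leaving the mitochondrion to phosphocreatine. Its control libraries ran from 54.3 over a median of 56.7 to 62.2 CPM, those at 1 Hz from 62.2 over 75.3 to 81.3 CPM, those at 4 Hz from 80.6 over 87.6 to 110.9 CPM, and those at 10 Hz from 47.6 over 56.3 to 62.4 CPM. All 6 libraries at 4 Hz lay above all control and all 10 Hz libraries, and the 1 Hz libraries, just clear of control, overlapped 4 Hz at their upper and 10 Hz at their lower end. At 4 Hz against control Ckmt2 was 1.63-fold higher (log2 fold change 0.71 ± 0.09 SE, edgeR adjusted p = 2.92e-06). The 1 Hz difference of 0.34 ± 0.09 had an adjusted p of 0.00571 in edgeR but stayed under the fold cutoff. From 1 to 4 Hz the difference was 0.36 ± 0.09 (edgeR adjusted p = 0.0105), also under the cutoff, and at 10 Hz Ckmt2 was lower than at 4 Hz (log2 fold change -0.75 ± 0.09, edgeR adjusted p = 1.85e-05). With non-polyadenylated RNA as a covariate, the 1 Hz difference from control was 0.22 (edgeR adjusted p = 0.635) and that from 1 to 4 Hz 0.36 (0.00961). On log2(TPM + 1) in limma the 4 Hz change was 0.50, just under the cutoff, with an adjusted p of 0.000114. The median of all genes was -0.16 in that fit.

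Ckm (ENSMUSG00000030399, GRCm39 chr7:19138701-19157965, + strand, 8 exons) encodes the muscle creatine kinase of the cytosol and the M-band. The control libraries held 50.0 to 91.9 CPM with a median of 67.9, the 1 Hz libraries 74.5 to 92.6 with a median of 78.7, the 4 Hz libraries 59.3 to 114.6 with a median of 80.0, and the 10 Hz libraries 48.6 to 84.9 with a median of 62.1. Every pair of conditions overlapped. The log2 fold change against control was 0.25 ± 0.15 at 1 Hz (edgeR adjusted p = 0.190), 0.28 ± 0.15 at 4 Hz (0.137), and -0.07 ± 0.15 at 10 Hz (0.850). The 10 Hz difference was -0.32 ± 0.15 from 1 Hz (edgeR adjusted p = 0.0878) and -0.35 ± 0.15 from 4 Hz (0.0875). Leaving out 1 library moved the edgeR adjusted p between 0.0446 and 0.343 at 4 Hz against control and between 0.0316 and 0.224 at 10 Hz against 4 Hz. With non-polyadenylated RNA as a covariate, Ckm was 0.57 at 1 Hz (edgeR adjusted p = 0.355) and 0.59 at 4 Hz (0.172). Within conditions Ckm varied more than the typical gene, with an SD of 0.28 on the log2 CPM scale against a median of 0.23 over all tested genes, while Ckmt2 varied less, at 0.16.

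Ckb (ENSMUSG00000001270, GRCm39 chr12:111635789-111639008, - strand, 8 exons) encodes the brain-type cytosolic enzyme, which muscle cells express before and early in differentiation. Control libraries ranged from 25.5 to 35.6 CPM (median 30.9), 1 Hz libraries from 27.9 to 48.8 (35.2), 4 Hz libraries from 30.8 to 55.4 (40.6), and 10 Hz libraries from 28.2 to 38.2 (34.9). The groups overlapped, with 4 of 6 libraries at 4 Hz above the highest control. The 4 Hz difference of 0.44 ± 0.14 on the log2 scale had an edgeR adjusted p of 0.0176 and did not reach the fold cutoff, and it was 0.51 without replicate 3 of 4 Hz. With non-polyadenylated RNA as a covariate, this difference was 0.16 (edgeR adjusted p = 0.769). The estimated counts of Ckb, summed by gene, were not whole in any library, as salmon gives where reads also match transcripts of another gene. Its level is therefore less certain than that of the other members, whose counts were whole or nearly so.

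Ckmt1 (ENSMUSG00000000308, GRCm39 chr2:121188195-121195706, + strand, 9 exons), the ubiquitous mitochondrial form, was close to absent. It had 22 counts in the whole series and none in 11 of 24 libraries. The 6 control libraries held 1 count together, or 0.0294 CPM of the total (95% exact Poisson interval 0.000744 to 0.164), the 1 Hz libraries 9 counts (0.184, 0.0840 to 0.349), the 4 Hz libraries 9 counts (0.164, 0.0752 to 0.312), and the 10 Hz libraries 3 counts (0.0610, 0.0126 to 0.178). Of the 9 counts at 1 Hz, 6 came from replicate 6. The intervals overlapped and cover counting error only, and a difference in these counts was not tested.

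**Figure D3:**
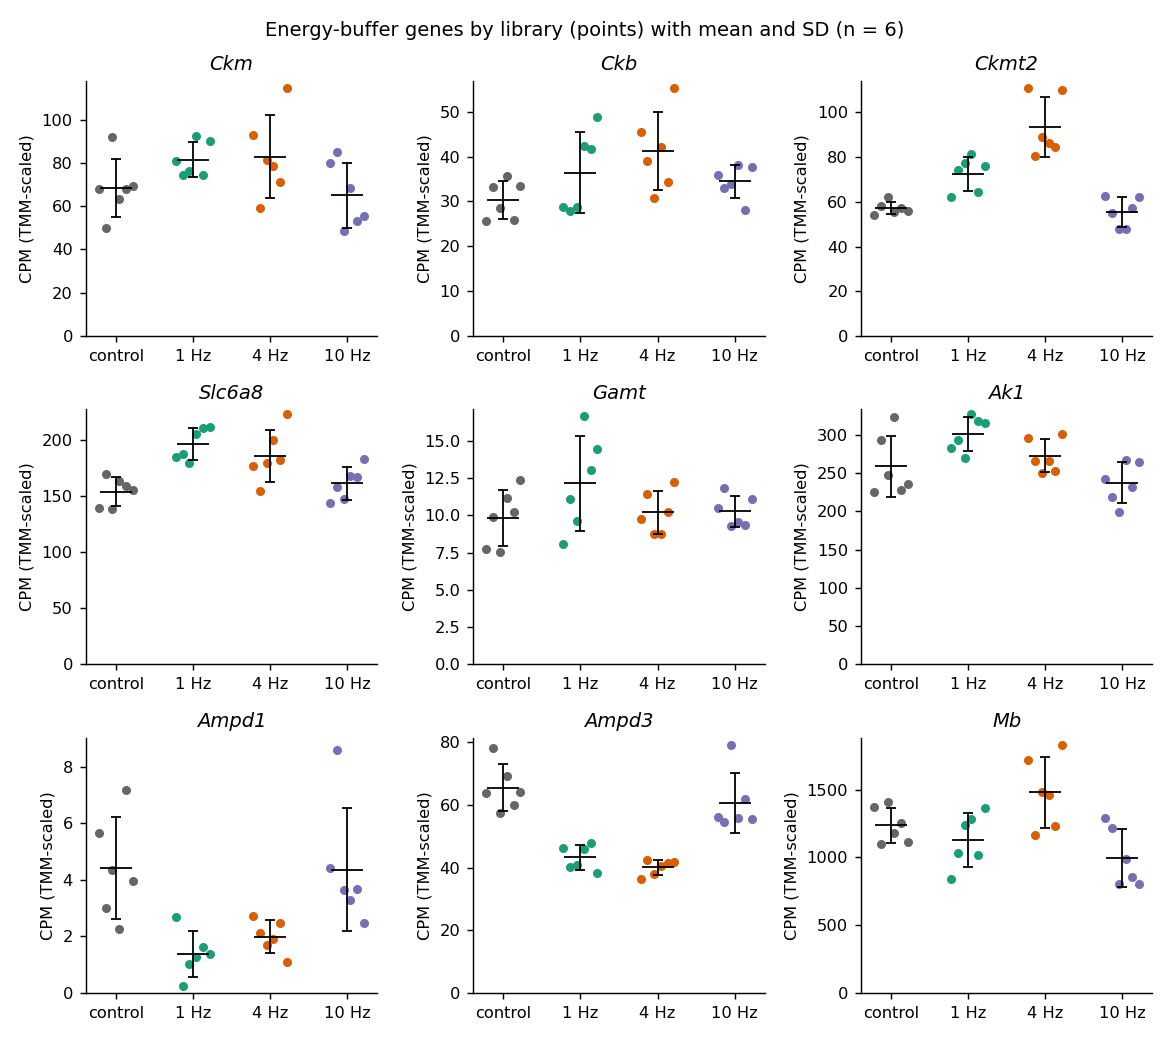
TMM-scaled CPM (y axis, from 0) of the 9 tested members in every library (points, 6 per condition), with the mean and SD as bars. The 4 Hz libraries of Ckmt2 lie above all control libraries, the 1 and 4 Hz libraries of Ampd3 lie below all control libraries, and the conditions overlap for Ckm, Ckb, Gamt, and Mb.

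Whether the make-up of the creatine kinase pool moved was tested as the share of each gene in the summed TPM of the 4 kinases, with 2-sided exact permutation tests over 6 against 6 libraries and a BH adjustment over 24 tests. The smallest p this design allows is 0.00216. The pool itself summed to 178 to 213 TPM in control, 192 to 239 at 1 Hz, 191 to 277 at 4 Hz, and 144 to 193 at 10 Hz. In control, Ckm held 48.7% ± 5.03, Ckmt2 33.4% ± 2.43, and Ckb 17.9% ± 3.17 of the pool (SD, n = 6). At 4 Hz the Ckmt2 share was 40.5% ± 2.41 and the Ckm share 41.1% ± 2.87, which left both genes close to each other. The Ckmt2 share at 4 Hz differed from control by 7.12 percentage points (exact permutation p = 0.00433) and the Ckm share by -7.57 points (exact permutation p = 0.00866). Both reached a BH adjusted exact permutation p of 0.0519, as did the Ckmt2 share at 10 Hz against 4 Hz and the Ckm share at 4 Hz against 1 Hz, and none of the 24 tests passed 0.05. Without replicate 2 of control the 4 Hz differences were 7.86 and -8.94 points, with a BH adjusted exact permutation p of 0.0390 each. Over all 12 ways of leaving out 1 library, this adjusted p ran up to 0.121 for the Ckmt2 share and 0.143 for the Ckm share. The Ckb share averaged 18.6% ± 2.89 (SD) over all 24 libraries, and its smallest exact permutation p was 0.119.

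**Figure D4:**
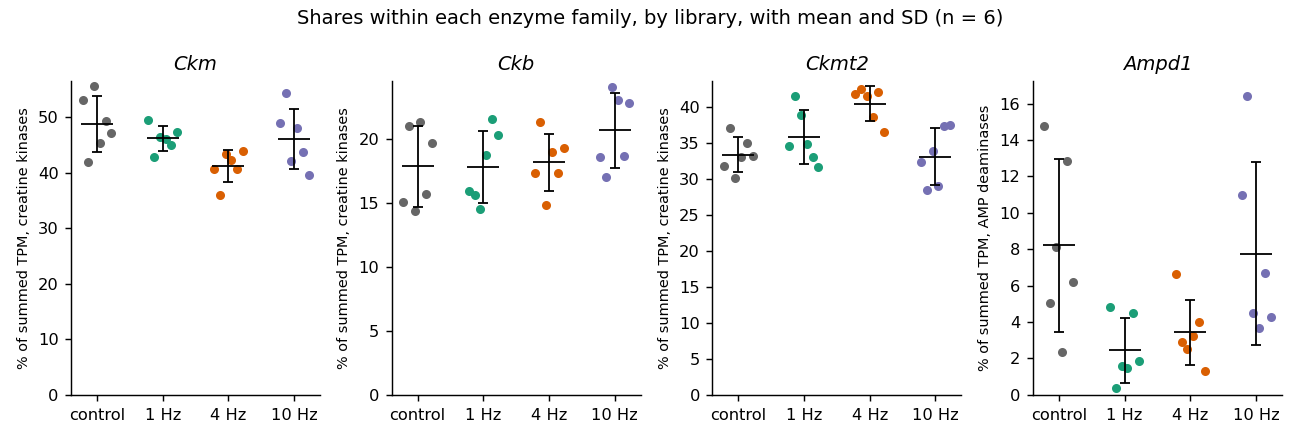
Share (y axis, percent, from 0) of Ckm, Ckb, and Ckmt2 in the summed TPM of the creatine kinases and of Ampd1 in that of the AMP deaminases, with 6 libraries per condition as points and the mean and SD as bars. The Ckmt2 share is 40.5% at 4 Hz against 33.4% in control, and the Ampd1 share is 2.44% at 1 Hz against 8.22% in control. The Ampd1 values rest on 1 to 56 counts per library.

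Creatine reaches the fiber through Slc6a8 and is made from guanidinoacetate by Gamt, the second enzyme of the pathway. Slc6a8 (ENSMUSG00000019558, GRCm39 chrX:72716728-72726108, + strand, 13 exons) held 138.7 to 169.7 CPM in control (median 157.4), 179.9 to 212.1 at 1 Hz (197.0), 155.1 to 223.4 at 4 Hz (181.2), and 143.8 to 183.4 at 10 Hz (163.1). All 1 Hz libraries lay above all control libraries, and 5 of 6 at 4 Hz did. The log2 fold changes of 0.35 ± 0.08 at 1 Hz (edgeR adjusted p = 0.00174) and 0.27 ± 0.08 at 4 Hz (edgeR adjusted p = 0.0101) passed the adjusted p and not the fold cutoff. At 10 Hz against 1 Hz the difference was -0.29 ± 0.08 (edgeR adjusted p = 0.00781). In the edgeR fit with non-polyadenylated RNA as a covariate, Slc6a8 passed the adjusted p in none of these comparisons. Its log2 fold changes against control there were 0.16 at 1 Hz (edgeR adjusted p = 0.688) and 0.08 at 4 Hz (0.785). For 10 Hz against 1 Hz the value was -0.13 (edgeR adjusted p = 0.591). Slc6a8 had the smallest spread within conditions of the 9 members, an SD of 0.14 on the log2 scale.

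Gamt (ENSMUSG00000020150, GRCm39 chr10:80089960-80096860, - strand, 6 exons) was low, at 7.55 to 12.3 CPM in control (median 10.1), 8.09 to 16.7 at 1 Hz (12.1), 8.76 to 12.2 at 4 Hz (10.0), and 9.28 to 11.8 at 10 Hz (10.0). All conditions overlapped, and the largest difference from control, 0.32 ± 0.16 at 1 Hz on the log2 scale, had an edgeR adjusted p of 0.117. Leaving out 1 library in turn moved this edgeR adjusted p between 0.0363 and 0.322. Its exons overlap those of Ndufs7 on the other strand by 473 bases, and whether counting used strand is not given in the sources used here, so reads of both genes may be mixed.

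Gatm, the first enzyme of creatine synthesis, was the other member of this route that could be followed. It held 78.7 to 110.1 CPM in control, 93.7 to 122.7 at 1 Hz, 111.7 to 140.0 at 4 Hz, and 90.0 to 120.3 at 10 Hz. The 4 Hz libraries all lay above control, a 1.42-fold rise (log2 fold change 0.51 ± 0.09, edgeR adjusted p = 0.000107) just past the fold cutoff. The value was 0.41 with scaling by total count and 0.31 in limma on log2(TPM + 1), and neither was a call. The median of all genes was -0.11 and -0.16 in these 2 fits. Of 3 genes listed for creatine synthesis and transport beside the members, 2 were tested, and Gatm was the 1 called.

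Ak1 (ENSMUSG00000026817, GRCm39 chr2:32511448-32528933, + strand, 7 exons), the cytosolic adenylate kinase of muscle, ran from 224.8 to 323.5 CPM in control (median 241.4), 270.3 to 326.9 at 1 Hz (304.8), 250.9 to 301.6 at 4 Hz (266.5), and 198.8 to 267.6 at 10 Hz (237.5). The 1 Hz libraries were the highest group and lay above all 10 Hz libraries, though they overlapped control. The 10 Hz against 1 Hz difference was -0.34 ± 0.09 on the log2 scale (edgeR adjusted p = 0.00445), under the fold cutoff, and the 1 Hz difference from control was 0.22 ± 0.09 (edgeR adjusted p = 0.0633). With non-polyadenylated RNA as a covariate, the 10 Hz against 1 Hz difference was -0.18 (edgeR adjusted p = 0.468). Of the 10 other adenylate kinases and nucleoside monophosphate kinases listed, 5 were tested and 0 were called in any comparison with control in edgeR, with 0 higher and 1 lower at 1 Hz, 0 and 0 at 4 Hz, and 1 and 1 at 10 Hz at an unadjusted p below 0.05. The shares of all genes below it, in either direction, were 44.4%, 47.8%, and 20.6%. DESeq2 and limma called 0 of the 5 against control.

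Ampd3 (ENSMUSG00000005686, GRCm39 chr7:110366387-110411617, + strand, 15 exons) encodes the AMP deaminase known from red cells and also expressed in muscle. It held 57.4 to 78.3 CPM in control with a median of 64.0, 38.4 to 47.9 at 1 Hz with a median of 43.3, 36.3 to 42.6 at 4 Hz with a median of 40.9, and 54.7 to 79.3 at 10 Hz with a median of 56.0. The 1 and 4 Hz libraries formed a low group and the control and 10 Hz libraries a high group, and the 2 groups did not overlap. Against control, Ampd3 fell to 0.659-fold at 1 Hz (log2 fold change -0.60 ± 0.09, edgeR adjusted p = 3.34e-05) and to 0.612-fold at 4 Hz (-0.71 ± 0.09, edgeR adjusted p = 2.58e-06). At 10 Hz it was higher than at 4 Hz by 0.60 ± 0.09 (edgeR adjusted p = 0.000131) and higher than at 1 Hz by 0.49 ± 0.09 (edgeR adjusted p = 0.000215), the latter just under the fold cutoff. Its difference between 10 Hz and control was -0.11 ± 0.09 (edgeR adjusted p = 0.522).

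Ampd1 (ENSMUSG00000070385, GRCm39 chr3:102981272-103007037, + strand, 16 exons), the muscle AMP deaminase, was the lowest tested member, with 1 to 56 counts per library. Control libraries held 2.26 to 7.20 CPM (median 4.17), 1 Hz libraries 0.247 to 2.70 (1.33), 4 Hz libraries 1.09 to 2.71 (2.01), and 10 Hz libraries 2.48 to 8.61 (3.67). The 1 and 4 Hz libraries were low and overlapped control at its lower end, with 5 of 6 and 4 of 6 libraries below the lowest control. The log2 fold change was -1.65 ± 0.36 at 1 Hz (edgeR adjusted p = 0.000873) and -1.13 ± 0.33 at 4 Hz (edgeR adjusted p = 0.00921). At 10 Hz it was higher than at 1 Hz by 1.65 ± 0.35 (edgeR adjusted p = 0.000652) and higher than at 4 Hz by 1.12 ± 0.33 (edgeR adjusted p = 0.0144), and it did not differ from control (-0.00158 ± 0.32, edgeR adjusted p = 0.999). With the share of non-polyadenylated RNA as a covariate in edgeR, all 4 calls of Ampd1 ended, at -0.64 (edgeR adjusted p = 0.698) for 1 Hz and -0.11 (0.938) for 4 Hz against control, and 0.70 (0.436) and 0.17 (0.978) for 10 Hz against 1 and 4 Hz. Without replicate 2 of 10 Hz, the highest library, the difference from 4 Hz was 0.83 and no longer passed (edgeR adjusted p = 0.0646).

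The share of Ampd1 in the summed TPM of Ampd1, Ampd2, and Ampd3 was 8.22% ± 4.74 in control, 2.44% ± 1.79 at 1 Hz, 3.43% ± 1.79 at 4 Hz, and 7.76% ± 5.02 at 10 Hz (SD, n = 6). In exact permutation tests the p of the difference from control was 0.0108 at 1 Hz and 0.0411 at 4 Hz, with BH adjusted values of 0.0584 and 0.0747 over 6 tests, none of which passed 0.05. The TPM of Ampd1 rests on few counts: replicates 2 and 4 of control both held 18 counts, at 3.62 and 1.46 TPM. As shares of estimated counts, control libraries ran from 1.87% to 6.80% and 1 Hz libraries from 0.260% to 2.58%. In TPM these ran from 2.36% to 14.8% and from 0.385% to 4.83%, so the level of the share depends on the measure. By counts, the 1 Hz difference was -2.69 percentage points with a BH adjusted exact permutation p of 0.0195. Ampd2, the form found in most cells, was not among the 10 members and was not called at 1 Hz (log2 fold change 0.38 ± 0.11, edgeR adjusted p = 0.0113, under the fold cutoff). Its share was 37.5% ± 7.99 in control and 53.0% ± 3.50 at 1 Hz, a shift that was not tested.

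Other enzymes of the AMP, IMP, and adenosine routes were followed from a list of 15 genes, of which 14 were tested. At 4 Hz against control 1 was called higher and 2 lower, against 10.5% and 9.61% of all genes. Adk, which turns adenosine back into AMP, held 11.6 to 16.9 CPM in control and 19.3 to 34.3 at 4 Hz, with no overlap (log2 fold change 0.96 ± 0.15, edgeR adjusted p = 1.52e-05). Nt5e, the surface enzyme that makes adenosine from AMP, held 35.1 to 59.8 CPM in control and 21.0 to 32.5 at 4 Hz (-0.75 ± 0.18, edgeR adjusted p = 0.00207). Pnp, which cleaves inosine and guanosine, held 26.4 to 41.1 CPM in control and 14.0 to 25.7 at 4 Hz (-0.82 ± 0.15, edgeR adjusted p = 0.000141), and its counts may be shared with the neighboring copy Pnp2. At 1 Hz against control Adk was called higher (0.65 ± 0.15, edgeR adjusted p = 0.00144) and Nt5e lower (-0.60 ± 0.18, edgeR adjusted p = 0.0131), with overlapping libraries. At 10 Hz against control 0 of 14 were called in edgeR, DESeq2, or limma, where edgeR called 1.24% of all genes higher and 0.623% lower. None of the 14 had an unadjusted p below 0.05 in edgeR, against 20.6% of all genes. With the non-polyadenylated RNA described further on as a covariate, none of Adk (0.69), Gatm (0.35), Nt5e (-0.54), and Pnp (-0.35) passed at 4 Hz in edgeR.

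Across the wider pathway, 37 of 49 listed genes other than the members were tested, covering creatine synthesis, adenylate kinases, AMP and adenosine enzymes, AMPK subunits, ATP and phosphate carriers, and globins with heme supply. At 1 Hz 1 was called higher and 1 lower, at 4 Hz 2 and 2, at 10 Hz against 4 Hz 1 and 1 (Pnp higher and Adk lower), and 0 in the other 3 comparisons. Of all genes, 9.34% were called higher and 8.99% lower at 1 Hz, 10.5% and 9.61% at 4 Hz, and 5.32% and 5.64% at 10 Hz against 4 Hz. In the other 3 comparisons these were 1.24% and 0.623% at 10 Hz against control, 1.59% and 1.4% at 4 Hz against 1 Hz, and 9.45% and 8.49% at 10 Hz against 1 Hz. The lower calls depended on the settings, with 4 at 1 Hz and 5 at 4 Hz under total count scaling, 3 and 6 in limma on log2(TPM + 1), and 0 and 0 with the covariate. The lower calls over all genes moved too. They were 1595 and 1821 of 13318 with total count scaling, 1157 and 2057 of 13627 in limma, and 0 and 100 of 13318 with the covariate. At an unadjusted p below 0.05, the other 3 comparisons had 3 higher and 1 lower at 10 Hz against control, 7 and 1 at 4 Hz against 1 Hz, and 10 and 6 at 10 Hz against 1 Hz. The shares of all genes there, in either direction, were 20.6%, 26.9%, and 46.1%. DESeq2 and limma called 0 in those 3 comparisons. The median log2 fold change of the 37 genes lay between -0.06 and 0.08 in all 6 comparisons. All 7 subunits of AMPK, the kinase that senses AMP, were tested, and 0 were called against control in edgeR, with 0 higher and 3 lower at 1 Hz, 1 and 2 at 4 Hz, and 1 and 0 at 10 Hz at an unadjusted p below 0.05. The shares of all genes below it, in either direction, were 44.4%, 47.8%, and 20.6%. DESeq2 also called 0 of the 7, and limma called 1 lower at 1 Hz and 1 lower at 4 Hz.

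Myoglobin (Mb, ENSMUSG00000018893, GRCm39 chr15:76899686-76940711, - strand, 4 exons) was the most abundant member. Its control libraries held 1099 to 1407 CPM (median 1216), 1 Hz libraries 838 to 1363 (1136), 4 Hz libraries 1166 to 1828 (1471), and 10 Hz libraries 803 to 1290 (920). The 4 Hz group was the highest and the 10 Hz group the lowest, and all groups overlapped. Mb was lower at 10 Hz than at 4 Hz, at 0.671-fold (log2 fold change -0.58 ± 0.13, edgeR adjusted p = 0.00314). Against control it did not pass the test, with 0.26 ± 0.13 at 4 Hz (edgeR adjusted p = 0.122), -0.13 ± 0.13 at 1 Hz (0.463), and -0.32 ± 0.13 at 10 Hz (0.161). The 4 Hz against 1 Hz difference of 0.39 ± 0.13 had an edgeR adjusted p of 0.0525. An antisense transcript, Gm49540, overlaps 412 exonic bases of Mb.

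Library composition moved with the conditions in which the members moved, so its values stand here. Totals were 4.09 M to 15.2 M counts per library (median 7.48 M), and control libraries were shallower on average than 4 Hz libraries (5.67 M against 9.12 M, exact permutation p = 0.00433, BH adjusted p = 0.0130). A list of 19 non-polyadenylated RNAs, of which 18 were found, took 96.5 to 167 CPM in control, 14.1 to 69.6 at 1 Hz, 17.2 to 50.0 at 4 Hz, and 37.0 to 271 at 10 Hz. Control did not overlap 1 or 4 Hz (exact permutation p = 0.00216 each, the smallest possible, BH adjusted 0.00974). Mitochondrial genes took a smaller share at 1 Hz than in control, 1.88% against 2.60% of counts on average (exact permutation p = 0.0130, BH adjusted 0.0292), and the part of this in the 1 Hz differences was not tested. The labels state that low-input samples were ribodepleted without naming them. With the log2 share of these RNAs as a covariate in edgeR, Ampd3 at 4 Hz was -0.74 ± 0.15 (adjusted p = 0.0119) and Ckmt2 at 4 Hz 0.59 ± 0.15 (adjusted p = 0.0327). Calls over all genes also nearly vanished in some comparisons of that fit: at 1 Hz, 0.00751% of genes were called in the higher direction and 0% in the lower, with 1.14% and 0.751% at 4 Hz, 0.691% and 1.18% at 10 Hz against 1 Hz, and 0% both ways at 10 Hz against 4 Hz. Ampd3 at 1 Hz was -0.63 ± 0.15 (edgeR adjusted p = 0.139). At 10 Hz against 4 Hz, where no gene at all was called in that fit, Ckmt2 was -0.65 (edgeR adjusted p = 0.145), Mb -0.69 (0.387), and Ampd3 0.62 (0.162). At 10 Hz against 1 Hz Ampd3 passed at 0.52 (edgeR adjusted p = 0.0437). Because the share and the stimulation moved together between control and 1 or 4 Hz, their parts in these differences cannot be told apart.

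**Figure D5:**
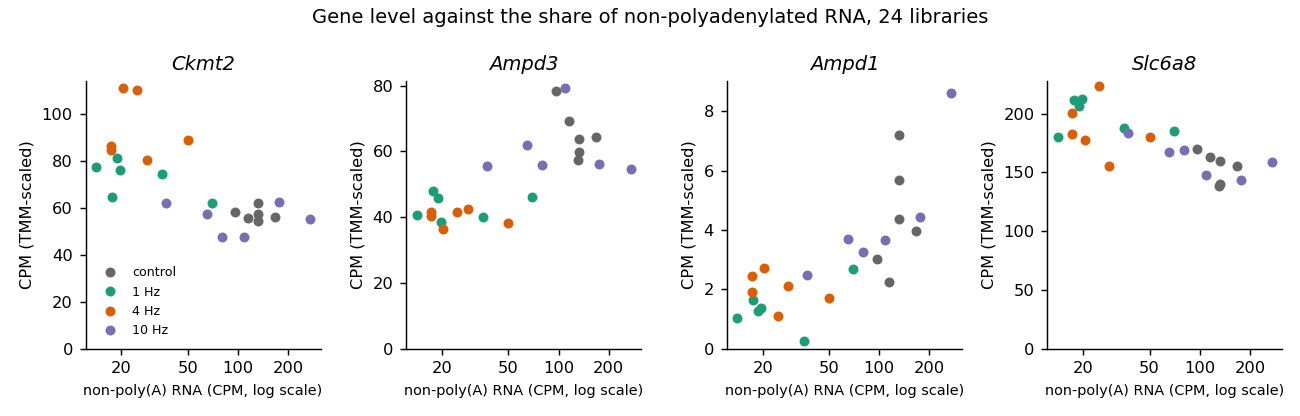
TMM-scaled CPM (y axis, from 0) of Ckmt2, Ampd3, Ampd1, and Slc6a8 against the share of non-polyadenylated RNA in CPM of the total (x axis, log scale) in 24 libraries, colored by condition. The 1 and 4 Hz libraries lie at 14.1 to 69.6 CPM on the x axis and the control libraries at 96.5 to 167, and the 10 Hz library with the highest share, 271, also has the highest Ampd1 level, 8.61 CPM.

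The labelled cell type was checked against markers. Of 9 myotube genes, all were tested, and the list summed to 8379 to 10451 CPM in control, 11532 to 15620 at 1 Hz, 11990 to 17896 at 4 Hz, and 8621 to 13259 at 10 Hz. At 1 and at 4 Hz 7 of 9 were called higher and 0 lower in edgeR, with median log2 fold changes of 0.74 and 0.84, and at 10 Hz 2 were higher (median 0.26). Of all genes, 9.34%, 10.5%, and 1.24% were called higher at 1, 4, and 10 Hz against control, and 8.99%, 9.61%, and 0.623% lower. At 10 Hz against 4 Hz, where Ckmt2 and Mb were lower, 4 of 9 were called lower and 0 higher, against 5.64% and 5.32% of all genes. The rise of Ckmt2 at 4 Hz thus stood beside a rise of myotube genes, and their part in it was not tested. Cycling-cell genes summed to 20.2 to 43.5 CPM and unfused myoblast genes to 74.0 to 127 CPM over the 24 libraries, with overlapping conditions. Of 5 unfused myoblast genes 1 was called higher and 1 lower at 1 and at 4 Hz, and of 5 cycling genes 2 were called higher at 4 Hz. At an unadjusted p below 0.05 in edgeR, 1 cycling gene was lower there. DESeq2 also called 2 cycling genes higher at 4 Hz, whereas limma on log2(TPM + 1) called 0 higher and 1 lower of 4 tested. Adipocyte and osteoblast lists summed to at most 0.921 and 1.52 CPM, with 0 of 4 genes of each tested. Of 4 neuron genes only Stmn2 was tested (31.5 to 52.7 TPM), and Snap25 and Rbfox3 were at 0 in 23 and 22 of 24 libraries.

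Within conditions the members fell into patterns that are given as descriptions over the 24 libraries, which share depth and composition. After removal of the condition means from log2 CPM, Ckm and Mb had the highest Pearson r, 0.81, followed by Ckb with Ak1 (0.68), Ckb with Gamt (0.68), and Ckmt2 with Mb (0.63). Ampd3 ran against Ckm (-0.60), Mb (-0.54), and Ckmt2 (-0.44). Ampd1 and Ampd3, which were both lower at 1 and 4 Hz, had an r of -0.09 within conditions and 0.60 with the conditions left in.

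The genes most like Ckm over the 24 libraries, among 9003 with at least 10 CPM on average, were Ybx1 (r = 0.80), Gpx1 (0.78), and Mcfd2 (0.77). Those most like Mb were the imprinted noncoding RNA H19 (0.83), Ybx1 (0.80), and Echdc2 (0.80). Those most like Ckb were the actin binder profilin Pfn1 (0.91), Rex1bd (0.90), and Hes6 (0.89). Ybx1, which encodes a cold-shock domain protein that binds nucleic acids, was listed for both Ckm and Mb.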

How the data were processed

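Bulk RNA-seq of 24 tissues was analysed, 6 per condition, with groups and replicate numbers taken from sample titles. Per the study's methods and labels, the authors enriched polyadenylated RNA, prepared strand-specific libraries for paired-end sequencing, and quantified reads with nf-core/rnaseq (STAR and Salmon in the submitters' processing notes) against GRCm39 and its Ensembl annotation. The authors deposited 1 table of estimated counts (expected counts by gene, unscaled) and 1 of TPM, which sums to the same total in every library. The sources used here do not give whether counting used strand. The 10 members were matched by gene name. Members and lists were chosen with earlier results of these data known.

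Estimated counts were rounded to whole numbers, filtered with filterByExpr (13318 of 56941 genes, 99.8% of counts), scaled by TMM, and tested in 1 quasi-likelihood fit of all 24 libraries in edgeR 4.0.16 (R 4.3.3), with condition as the only factor and 6 contrasts. Total counts of 4.09 M to 15.2 M per library set the precision, and intervals cover counting error only, since PCR copies were not told apart by molecular identifiers. Shares were tested with 2-sided exact permutation tests. The fits were tested on simulated data. Gene positions and promoter windows came from GENCODE M39 on GRCm39, whose release may differ from the authors'. Of 50 symbols in the pathway lists, 3 were matched through synonyms in the RefSeq table, 2 of which named genes not otherwise listed. Named pathway genes were, per comparison, up to 2 called genes in each direction, those farthest from 0 in log2 fold change among genes whose libraries did not overlap. Genes of likeness needed a mean of 10 CPM and were neither predicted genes nor pseudogenes. Ampd2, the 1 Hz values of Adk and Nt5e, and Pnp and Adk at 10 Hz against 4 Hz were named beside this rule, after their values were seen.

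Alternatives were total count or DESeq2 size factors as the scaling, no filter, a minimum mean of 5 CPM, DESeq2 1.42.0, limma 3.58.1 on log2(TPM + 1) and log2(TPM + 0.1) with a mean of at least 1 TPM and on log2(TPM + 1) without it, only the 12 libraries compared, a replicate block, an adjusted p alone, the log2 share of non-polyadenylated RNA as a covariate, shares of estimated counts, and leaving out each library in turn. Fold changes in limma are on the log2(TPM + pseudocount) scale, which depends on the pseudocount for low genes. No libraries were copies of each other: the lowest chi-square per gene among 60 pairs within conditions was 3.25.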

Additional observations from a re-analysis of the deposited data

Results flagged for a closer look

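2 of 52 groups of 6 libraries held 1 library far from the others, and chance alone gives about 1 in 20 such groups. Ampd1 at 10 Hz was 8.61 CPM in replicate 2, where the next highest library had 4.44 CPM and the lowest 2.48. Ampd3 at 10 Hz was 79.3 CPM in replicate 3, where the next highest had 61.9 CPM and the lowest 54.7. Without replicate 2 the Ampd1 difference of 10 Hz from 4 Hz fell below the threshold, as given with its values in the report, and the Ampd3 difference of 10 Hz from 4 Hz passed in all 12 fits that left out 1 library.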

How the results depend on the processing

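Of the 10 member calls, all kept their direction under the alternatives, and Ampd3 at 4 Hz against control stayed called in all 12. The replicate numbers were not taken to pair the libraries, since r of same-numbered libraries ran from -0.18 to 0.36 (median 0.02); 10 of 24 correlated best with their own number, a hint from the data and not the design. No label ties the numbers together, and with the replicate block the counts of members called were unchanged, such as 2 lower at 1 Hz. An adjusted p alone gave 2 members higher at 1 Hz, 3 higher at 4 Hz, 1 higher at 4 Hz against 1 Hz, and 2 higher and 3 lower at 10 Hz against 1 Hz, where 2414, 2558, 761, 2359, and 2470 of all 13318 genes passed. A minimum of 5 CPM removed Ampd1 from the test and left 1 lower at 1 Hz, 1 lower at 4 Hz, and 1 higher at 10 Hz against 4 Hz. With the covariate, 0 were lower at 1 Hz, 1 lower at 4 Hz, and 0 higher and 0 lower at 10 Hz against 4 Hz, where 0%, 0.751%, 0%, and 0% of all genes were called; the cause was not tested. In limma on log2(TPM + 1), with or without the filter, 0 were higher at 4 Hz; at 10 Hz against 4 Hz it gave 1 higher, log2(TPM + 0.1) gave 1, and no filter gave 0. Scaling by total count gave 2 higher at 10 Hz against 1 Hz.

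Leaving out 1 library gave 1 to 2 members higher at 4 Hz, 1 to 2 higher at 10 Hz against 1 Hz, and 1 to 2 higher at 10 Hz against 4 Hz. The share differences in percentage points then ranged from -8.94 to -6.21 for Ckm and 6.46 to 7.92 for Ckmt2 at 4 Hz, and for Ampd1 from -6.95 to -4.47 at 1 Hz, -5.96 to -3.48 at 4 Hz, 3.58 to 6.14 at 10 Hz against 1 Hz, and 2.59 to 5.15 at 10 Hz against 4 Hz. Share differences that changed sign when 1 library was left out were Ckm at 10 Hz against 1 Hz (-1.76 to 1.21), Ckb at 1 Hz (-0.83 to 0.61), 4 Hz (-0.38 to 1.01), and 4 Hz against 1 Hz (-0.26 to 1.14), Ckmt1 at 4 Hz against 1 Hz (-0.0759 to 0.0513), Ckmt2 at 10 Hz (-1.14 to 0.67), and Ampd1 at 10 Hz (-2.19 to 0.85). As shares of estimated counts, Ckb at 4 Hz was -0.65 and Ampd1 at 10 Hz 0.0232, both of opposite sign, and Ampd1 was -2.69 at 1 Hz and 2.71 at 10 Hz against 1 Hz, both past the threshold.

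Log2 fold changes near 0 changed sign. Leaving out 1 library gave -0.00801 to 0.13 for Gamt at 4 Hz, -0.00108 to 0.14 at 10 Hz, and -0.041 to 0.055 at 10 Hz against 4 Hz, -0.16 to 0.037 for Ckm at 10 Hz and -0.083 to 0.11 at 4 Hz against 1 Hz, -0.30 to 0.18 for Ampd1 at 10 Hz, and -0.15 to 0.024 for Ckb at 10 Hz against 1 Hz. In limma with a pseudocount of 1, with or without the filter, and of 0.1, values were -0.0160 and -0.0162 for Ckm at 4 Hz, -0.12 and -0.12 at 4 Hz against 1 Hz, -0.11 and -0.11 for Ak1 at 4 Hz, -0.11 and -0.12 for Gamt at 4 Hz, and -0.0127 and -0.0123 at 10 Hz. With the filter, the median of all genes at 4 Hz was -0.16 and -0.18 in these limma fits. Total count scaling, where that median was -0.11, gave -0.027 for Ak1 and -0.036 for Gamt at 4 Hz. The covariate gave -0.021 for Ckb at 1 Hz and 0.17 at 10 Hz against 1 Hz, -0.12 for Ak1 and -0.060 for Gamt at 4 Hz, and 0.065 for Ampd1 at 10 Hz. Ampd1 at 10 Hz was 0.0014 with DESeq2 size factors, 0.015 without a filter, and 0.0044 in the 12 libraries compared, and Gamt at 10 Hz against 4 Hz was -0.012 without a filter.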
